A study of Danio rerio with 6 samples.

Results

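Myelin and oligodendrocyte genes were followed in whole zebrafish embryos given a morpholino against wbp11. The 9 genes were taken by name from the deposited count table: mbpa, mbpb, mpz, plp1a and plp1b, which encode myelin proteins, the transcription factor genes olig1, olig2 and sox10, and gfap, which encodes the intermediate filament of radial glia. Each name matched 1 row, so 9 of the 25432 genes in the table were members, and all 9 passed the filter on low counts that left 20012 genes for testing. Poly(A)-selected RNA was sequenced at 72 hours post fertilization in 3 control-MO libraries, from embryos that received a control morpholino, and 3 wbp11-MO libraries, from embryos that received the wbp11 morpholino. Each library came from a pool of 50 embryos, and the 3 libraries of a group were described as biological replicates. Morpholinos are antisense oligomers that stop translation or splicing of a target RNA. Their effect is transient and reaches the whole embryo rather than a chosen cell type. The strain, the dose of either morpholino and the mode of block were not stated in the labels, and the series title relates wbp11 loss to VACTERL association, a pattern of malformations in several organs.

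Myelin is the layered membrane that oligodendrocytes in the central nervous system and Schwann cells in peripheral nerves wrap around axons. Oligodendrocytes arise from ventral neural precursors that need Hedgehog signalling and the transcription factor Olig2, precursors that also give rise to motor neurons. Sox10 acts in oligodendrocytes and Schwann cells, and in the neural crest and its pigment cell derivatives as well. Genes of the myelin sheath come on late in this sequence, when cells already specified begin to wrap, and zebrafish reach that stage at about the age sampled here.

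The libraries held between 11219706 and 13669995 counted reads. The table had 2 rows for wbp11, neither of them reduced after the wbp11 morpholino. The row on chromosome 3 had a log2 fold change of 0.72 ± 0.12 (SE, adjusted p = 4.71e-06 by edgeR), and the row on an unplaced scaffold had one of 0.30 ± 0.16 (SE, adjusted p = 0.103 by edgeR). A block of translation need not lower a transcript, so these values do not check the labels, and every direction below refers to the libraries labelled wbp11-MO. Between the groups 61.7% of all tested genes differed by edgeR's quasi-likelihood test at an adjusted p under 0.05, and a count of members has to be read against that share.

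Of the 5 myelin protein genes, 4 were lower and 1, plp1a, was higher in wbp11-MO. Among the transcription factor genes olig1 was lower, while olig2 and sox10 did not pass the test, and gfap was lower by a small amount. Over the 9 genes this gave 6 lower and 1 higher, against 31.2% lower and 30.5% higher among all tested genes. Counting called genes with a log2 fold change of at least 1 in size, 4 members were lower and 1 was higher, against 14.3% and 5.9% of all tested genes. The groups did not overlap in 8 members, 7 of them lower and 1 higher, against 33.1% and 32.3% of all tested genes. The median log2 fold change of the 9 was -0.46, beside 0.0013 for all tested genes. Because whole embryos were sequenced, fewer cells of a type and less RNA per cell cannot be told apart here.

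**Figure D1:**
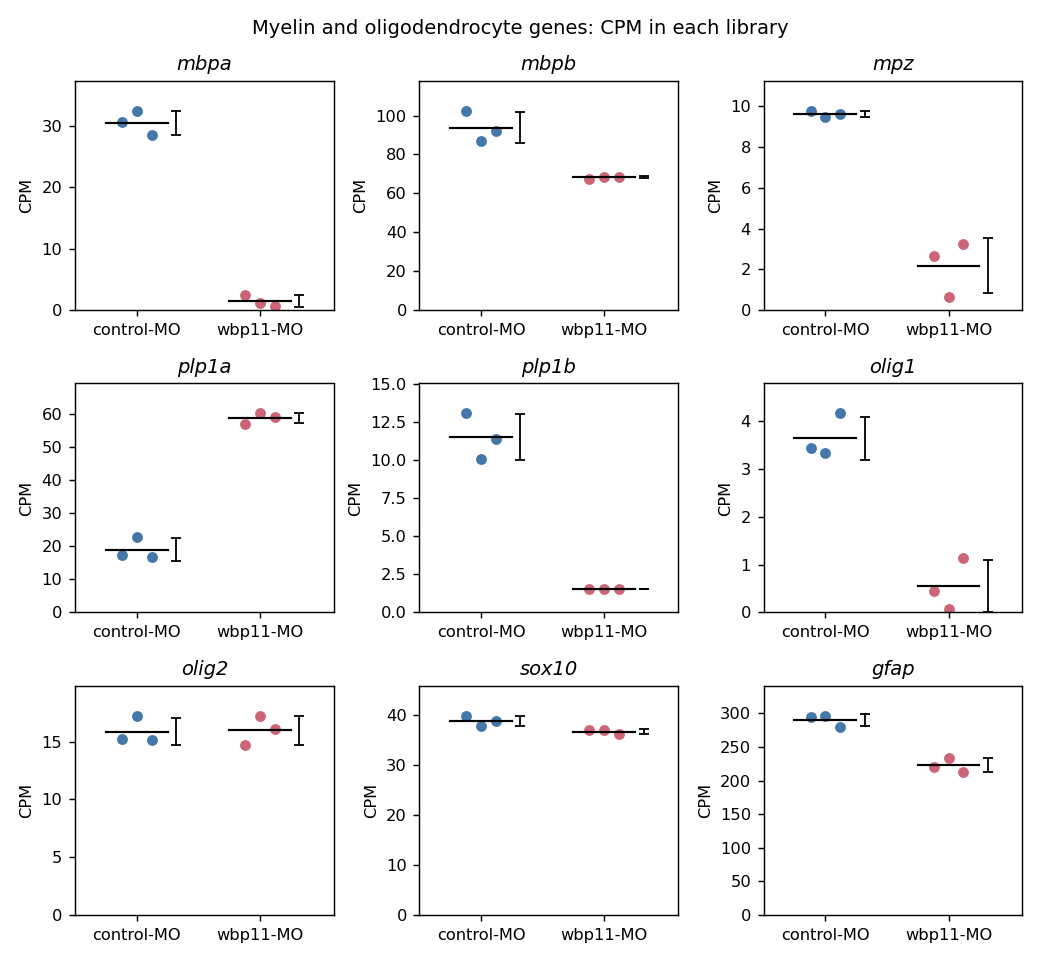
CPM (linear axes from 0) of each gene in each library, with control-MO in blue and wbp11-MO in red; points are libraries, lines are group means and the bars beside them SD (n = 3). The groups are far apart for mbpa, mpz, plp1a, plp1b and olig1, and intermingle for olig2.

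The gene mbpa (ENSDARG00000036186, chromosome 19, 21814047 to 21832630, minus strand, GRCz11) encodes myelin basic protein, which holds the inner faces of the myelin membrane together. In CPM, the count scaled to a common library total, it stood at 30.6, 32.5 and 28.6 in control-MO replicates 1, 2 and 3 and at 2.51, 1.21 and 0.73 in wbp11-MO replicates 1, 2 and 3. Every wbp11-MO library lay far below every control-MO library. From control-MO to wbp11-MO the mean went from 30.6 ± 1.95 to 1.48 ± 0.92 CPM (SD, 3 libraries each), which on the log2 scale is a fold change of -4.33 ± 0.20 (SE, adjusted p = 3.53e-18 by edgeR), or 20.1-fold. Only 0.715% of tested genes had a more negative log2 fold change. The fall was deeper, at -4.97 on the log2 scale, without wbp11-MO replicate 1, which held 34 of the 58 counts of that group.

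The second myelin basic protein gene, mbpb (ENSDARG00000089413, chromosome 16, 6803342 to 6849781, minus strand), moved much less. Its levels were 102.4, 87.0 and 92.1 CPM in the control-MO libraries and 67.6, 68.5 and 68.5 CPM in the wbp11-MO libraries. The groups did not overlap, as was the case for 65.4% of all tested genes. The mean fell from 93.8 ± 7.87 to 68.2 ± 0.52 CPM, a log2 fold change of -0.46 ± 0.06 (SE, adjusted p = 2.84e-07 by edgeR), and 27.3% of tested genes had a more negative one.

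The gene mpz (ENSDARG00000038609, chromosome 2, 44259482 to 44283554, minus strand) encodes myelin protein zero, the adhesion protein of peripheral myelin in mammals and a component of central myelin as well in fish. It stood at 9.77, 9.46 and 9.62 CPM in control-MO and at 2.66, 0.646 and 3.25 CPM in wbp11-MO. The lowest wbp11-MO library, replicate 2, held 8 counts, and the other libraries of its group held 36 and 40. The mean fell from 9.62 ± 0.155 to 2.18 ± 1.36 CPM, a log2 fold change of -2.13 ± 0.27 (SE, adjusted p = 6.1e-08 by edgeR). Leaving out each library in turn gave log2 fold changes between -2.51 and -1.71, and the gene stayed called each time.

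The paralogs plp1a and plp1b went in opposite directions. The gene plp1b (ENSDARG00000011929, chromosome 5, 23268121 to 23280098, minus strand) stood at 13.1, 10.1 and 11.4 CPM in control-MO and at 1.55, 1.53 and 1.54 CPM in wbp11-MO. It fell by 2.89 ± 0.22 on the log2 scale (SE, adjusted p = 9.17e-13 by edgeR), or 7.43-fold, with 3 closely spaced wbp11-MO libraries. The gene plp1a (ENSDARG00000103732, chromosome 14, 14577246 to 14596699, plus strand) stood at 17.4, 22.9 and 16.7 CPM in control-MO and at 56.9, 60.2 and 59.2 CPM in wbp11-MO. It rose from 19.0 ± 3.41 to 58.8 ± 1.65 CPM, a log2 fold change of 1.63 ± 0.10 (SE, adjusted p = 1.45e-15 by edgeR), or 3.10-fold, and all 3 wbp11-MO libraries were above all 3 control-MO libraries. A higher log2 fold change was found for 1.57% of tested genes.

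**Figure D2:**
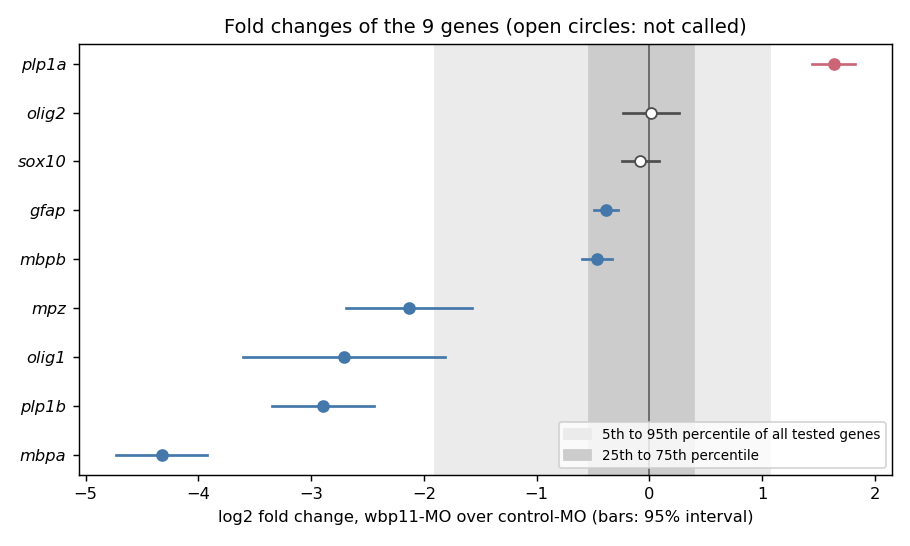
Log2 fold change of each gene (wbp11-MO over control-MO) with its 95% interval; blue is called lower, red called higher and open circles not called, and grey bands show the middle and the 5th to 95th percentile range of all tested genes. The genes mbpa, plp1b, olig1 and mpz lie below the 5th percentile of -1.90, plp1a lies above the 95th percentile of 1.07, and mbpb, gfap, sox10 and olig2 lie in the middle band.

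The difference between paralogs was then taken within each library, where scaling between libraries cannot enter. The gene mbpa gave 23.0%, 27.2% and 23.7% of the counts of the mbpa and mbpb pair in control-MO replicates 1 to 3. In wbp11-MO replicates 1 to 3 it gave 3.58%, 1.74% and 1.06%, and the exact 95% binomial intervals of the libraries in different groups did not overlap, with 21.1% as the lowest bound in control-MO and 4.97% as the highest in wbp11-MO. The gene plp1b gave 42.8%, 30.5% and 40.5% of the counts of the plp1a and plp1b pair in control-MO, where replicate 2 was the lowest. It gave 2.65%, 2.49% and 2.54% in wbp11-MO, with 25.9% as the lowest bound in control-MO and 4.03% as the highest in wbp11-MO. These intervals cover counting error only.

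Per base of gene length and on the log2 scale, with 0.5 added to each count, the ratio of mbpa to mbpb went from -1.56 ± 0.17 to -5.60 ± 0.88 (SD, n = 3 each). The ratio of plp1a to plp1b went from -0.49 ± 0.41 to 4.01 ± 0.05, so that the order of these paralogs per base turned over. In control-MO replicate 2 this ratio was near even, at -0.02. By counts alone plp1a was above plp1b in every library of both groups. The ratio of mbpa to plp1a went from 1.59 ± 0.17 to -4.55 ± 0.90. The groups did not overlap in any of these 3 ratios, and the exact 2-sided permutation p was 0.10 in each (0.125 after Benjamini-Hochberg adjustment over 5 ratios compared), the smallest that 3 libraries against 3 can give. With the counts of each pair added, mbpa plus mbpb fell by 0.84 ± 0.06 on the log2 scale (SE, adjusted p = 2.25e-13 by edgeR) and plp1a plus plp1b rose by 0.98 ± 0.08 (SE, adjusted p = 1.99e-12 by edgeR). The row of mbpa overlaps CU856623.1 on the opposite strand, which held 4 counts over control-MO and 0 over wbp11-MO. No other member overlapped another row of the table.

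**Figure D3:**
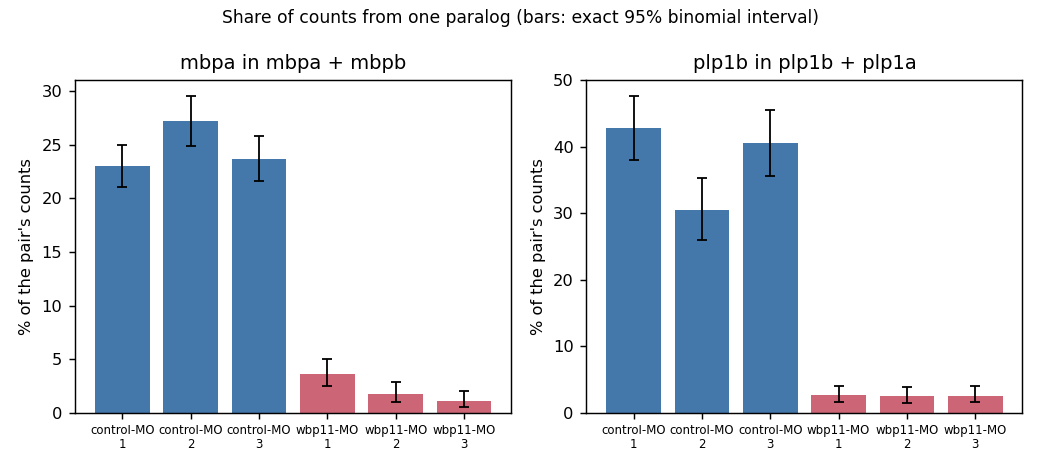
Share of the counts of a paralog pair that came from mbpa (left) and from plp1b (right) in each library, in percent, with exact 95% binomial intervals. In wbp11-MO every library lies below 4% for mbpa and below 3% for plp1b, while every control-MO library lies above 20% and above 30%.

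The transcription factor genes did not move together. The neighbouring genes olig1 and olig2 lie on the same strand of chromosome 9, at 32728653 to 32730487 and 32751428 to 32753535, with 20940 bases and no other row between them. Olig2 specifies motor neurons and oligodendrocytes, and Olig1 acts in oligodendrocyte maturation in mice. The gene olig1 held 47, 39 and 57 counts in control-MO and 6, 1 and 14 counts in wbp11-MO. These were 3.43, 3.33 and 4.16 CPM against 0.443, 0.081 and 1.14 CPM, and the groups did not overlap. Its log2 fold change was -2.71 ± 0.44 (SE, adjusted p = 3.24e-06 by edgeR), or 6.53-fold lower. It was -3.72 without wbp11-MO replicate 3 and -2.22 without wbp11-MO replicate 2, so its size is less certain than its direction at these counts.

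By contrast olig2 stood at 15.2, 17.2 and 15.1 CPM in control-MO and at 14.7, 17.2 and 16.1 CPM in wbp11-MO. The groups overlapped, with means of 15.9 ± 1.19 and 16.0 ± 1.25 CPM. The log2 fold change was 0.01 ± 0.12 (SE, adjusted p = 0.932 by edgeR) with a 95% interval from -0.24 to 0.26, so a change by the factor seen for olig1 lies outside the interval. Its sign turned under 5 of 14 alternatives. The log2 ratio of olig1 to olig2 per base of gene length, a pair chosen after the values were seen, went from -1.93 ± 0.25 to -5.10 ± 1.72 (SD, n = 3 each, 2-sided exact permutation p = 0.10, the smallest possible, and 0.125 adjusted over the 5 ratios).

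The gene sox10 (ENSDARG00000077467, chromosome 3, 1492174 to 1501255, plus strand) stood at 39.9, 37.9 and 38.8 CPM in control-MO and at 37.0, 37.0 and 36.3 CPM in wbp11-MO. The groups did not overlap, but the gap was small and the gene was not called. Its log2 fold change was -0.08 ± 0.08 (SE, adjusted p = 0.391 by edgeR) with a 95% interval from -0.24 to 0.08. The ratio of sox10 to olig2, also chosen after the values were seen, stood at 0.36 ± 0.14 in control-MO and 0.27 ± 0.12 in wbp11-MO on the log2 scale (2-sided exact permutation p = 0.40, n = 3 each, and 0.40 adjusted over the 5 ratios).

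In zebrafish gfap marks radial glia, the neural stem cells that also do much of the work of astrocytes. The gene (ENSDARG00000025301, chromosome 3, 31792441 to 31804481, minus strand) stood at 294.5, 296.5 and 279.6 CPM in control-MO and at 220.7, 233.7 and 213.2 CPM in wbp11-MO. The groups did not overlap, and gfap fell by 0.38 ± 0.05 on the log2 scale (SE, adjusted p = 1.52e-07 by edgeR). A more negative log2 fold change was found for 30.1% of tested genes.

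The order of levels between genes was read from the deposited FPKM values, which are per kilobase of gene length. In control-MO gfap was highest at 112.2 ± 4.95 FPKM (SD, n = 3), followed by mbpb at 34.4 ± 2.45, sox10 at 12.4 ± 0.18, mbpa at 11.7 ± 0.93, olig2 at 9.65 ± 0.90, plp1b at 5.47 ± 0.64, plp1a at 3.93 ± 0.78, mpz at 2.57 ± 0.02 and olig1 at 2.52 ± 0.29 FPKM. The ranges of neighbours overlapped for sox10 and mbpa and for mpz and olig1. In wbp11-MO the order began with gfap at 81.8 ± 3.87 and mbpb at 23.8 ± 0.16 FPKM. Next came plp1a at 11.5 ± 0.18, level with sox10 at 11.2 ± 0.26, and then olig2 at 9.24 ± 0.62 FPKM. The remaining genes, plp1b at 0.699 ± 0.014, mpz at 0.555 ± 0.35, mbpa at 0.543 ± 0.35 and olig1 at 0.364 ± 0.35 FPKM, all lay under 1 FPKM, and the ranges of neighbours overlapped among them. Thus mbpa moved from the fourth to the eighth place and plp1a from the seventh to the third.

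Other genes of myelin and myelinating glia were taken from a written list of 45 symbols, of which 42 were found and 41 tested. This list and the written lists below were drawn up with earlier results of these data known. In wbp11-MO 24 of the 41 were lower (58.5%) and 7 higher (17.1%), beside 31.2% and 30.5% of all tested genes, and the median log2 fold change was -0.36. Not all listed genes are particular to glia, and cntn1b, lingo1a, lingo1b, nfasca, cntnap1 and nrg1, for instance, are expressed by neurons too. All of these named genes but nrg1 were called lower. The part that genes not particular to glia have in the share was not tested. The members of the list with the smallest adjusted p among those that fell were mag, cntn1b, fa2h and lingo1b. The gene mag, which encodes the myelin-associated glycoprotein of the innermost wrap, held 351, 243 and 310 counts in control-MO and 37, 26 and 37 in wbp11-MO, and its log2 fold change was -3.13 ± 0.17 (SE, adjusted p = 1.59e-16 by edgeR). The contactin gene cntn1b fell to 13.0 ± 1.65 from 37.9 ± 4.77 CPM (SD, n = 3). The gene fa2h, which encodes the hydroxylase for the fatty acids of myelin galactolipids in mammals, fell from 40.9 ± 1.21 to 19.3 ± 0.10 CPM, and lingo1b, which encodes a co-receptor of the Nogo receptor in mammals, from 17.7 ± 0.86 to 5.48 ± 0.97 CPM.

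Among the genes of the list that rose, the zinc finger transcription factor gene egr2a, picked with its values known, went from 2.29 ± 0.30 to 4.24 ± 0.75 CPM (SD, n = 3), a log2 difference of 0.90 ± 0.27 (SE, adjusted p = 0.00486 by edgeR). Its paralog egr2b, on the same list, went the other way, from 5.54 ± 0.66 to 1.25 ± 0.20 CPM (SD, n = 3). The log2 fold change of egr2b was -2.14 ± 0.28 (SE, adjusted p = 9.92e-08 by edgeR). The periaxin gene prx had a log2 fold change of 0.59 ± 0.06, padi2, which encodes a peptidylarginine deiminase, one of 0.54 ± 0.06, the RNA-binding protein gene qkia one of 0.30 ± 0.05 and the transcription factor gene pou3f1 one of 0.26 ± 0.06 (SE). No gene of this list rose by 1 or more on the log2 scale, and 12 fell by that much. Further genes were chosen after their values were seen. The connexin gene cx47.1, whose mammalian counterpart forms gap junctions of oligodendrocytes, held 69 counts over control-MO and 4 over wbp11-MO, and the gliomedin gene gldn held 127 against 15. The claudin gene cldnk, a marker of zebrafish myelinating cells, fell by 0.69 ± 0.19 on the log2 scale (SE, adjusted p = 0.00245 by edgeR). The gene myrf, which encodes a transcription factor that switches on myelin genes in oligodendrocytes, stood at 12.9 ± 2.06 and 12.1 ± 0.48 CPM and was not called (edgeR adjusted p = 0.614).

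**Figure D4:**
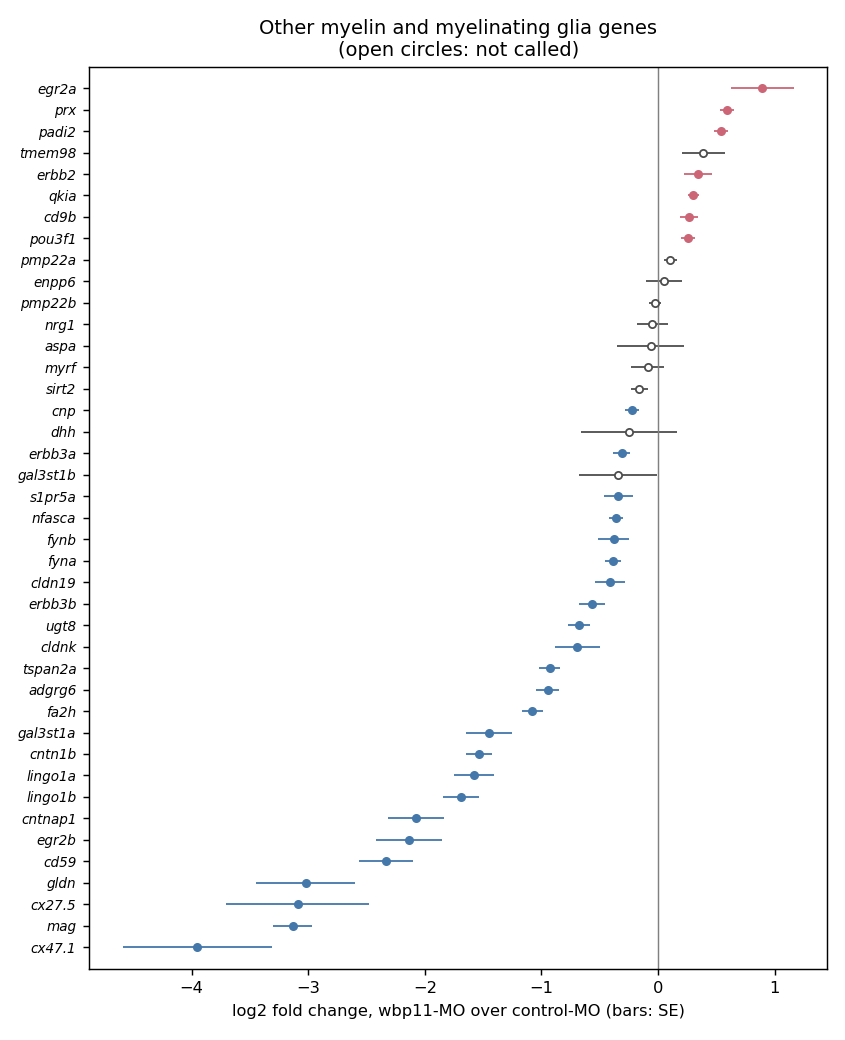
Log2 fold change (wbp11-MO over control-MO) of the 41 tested genes on the list of other myelin and myelinating glia genes, with SE; blue is called lower, red called higher and open circles not called. The falls reach -3.95 for cx47.1, while the largest rise, of egr2a, is 0.90. The paralog egr2b lies at -2.14.

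Regulators of the oligodendrocyte lineage were taken from a list of 30 symbols, of which 29 were found. The symbol ascl1b had a row called higher and another not called, and all 30 rows found were tested. Here 15 were higher (50.0%) and 9 lower (30.0%), beside 30.5% and 31.2% of all tested genes. The share that was lower was thus near that of all tested genes, and the list's median log2 fold change was 0.15. Many listed genes are not particular to this lineage, as other cells of the embryo express them too. The part of such genes in these shares was not tested. Among those that rose were myt1b and myt1a, which encode zinc finger proteins of neural and glial precursors, with log2 fold changes of 1.54 ± 0.08 and 0.62 ± 0.06 (SE), the chromatin remodeller gene chd7 at 0.93 ± 0.05 and prdm8 at 1.38 ± 0.15. Lower were id2a and id4, which encode inhibitors of bHLH factors, at -0.88 ± 0.06 and -1.06 ± 0.11, zeb2b at -0.96 ± 0.07 and sox6 at -0.44 ± 0.06. The paralogs olig3 and olig4, chosen after their values were seen, rose from 5.23 ± 0.45 to 14.5 ± 1.77 and from 2.36 ± 0.43 to 7.91 ± 1.64 CPM (SD, n = 3). The gene nkx2.2a, a marker of oligodendrocyte precursors, stood at 13.6 ± 1.75 and 14.9 ± 2.12 CPM and was not called (edgeR adjusted p = 0.396). Further genes of the list, chosen with their values known, went various ways. On the log2 scale nkx2.2b rose by 0.87 ± 0.32, cspg4 by 0.47 ± 0.08 and pdgfra by 0.17 ± 0.06 (SE), and each was called. The gene sox8a had a log2 fold change of -1.55 ± 0.41 (SE, adjusted p = 0.00149 by edgeR), and gpr17 was not called (adjusted p = 0.758 by edgeR).

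Markers of other cells that use these genes were set beside them. Of 27 listed radial glia and astroglia genes apart from gfap, 25 were found and tested, while cyp19a1b and kcnj10b were not found. In wbp11-MO 17 of the 25 were lower (68%) and 3 higher (12%). The other 5 were not called, among them sox2, vim and her4.1. Among all tested genes the shares were 31.2% and 30.5%. The median log2 fold change of the list was -0.85. The glutamate transporter gene slc1a2a fell from 27.9 ± 0.68 to 0.445 ± 0.28 CPM and slc1a2b from 691.6 ± 28.8 to 326.8 ± 2.31 CPM (SD, n = 3). On the log2 scale the glutamine synthetase gene glula fell by 0.91 ± 0.05 while glulb rose by 0.61 ± 0.05, and slc1a3a and the neural stem cell filament gene nes rose by 1.09 ± 0.08 and 1.11 ± 0.11 (SE). Summed over the 5 defining markers (gfap, slc1a3b, fabp7a, glula and s100b) the level ran from 1094 to 1136 CPM in control-MO and from 724.5 to 730.5 CPM in wbp11-MO, with none at 0, and 4 of the 5 were called lower. Both the sum and this count include the member gfap, at means of 290.2 CPM in control-MO and 222.6 CPM in wbp11-MO. Also called lower were fabp7a, glula and s100b, while slc1a3b was not called (adjusted p = 0.344 by edgeR).

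Of 20 neuron genes 19 were lower (95%) and 1 higher (5%), beside 31.2% and 30.5% of all tested genes. The list median was -0.90, and the synaptic vesicle gene sv2a fell from 312.6 ± 10.6 to 84.5 ± 1.88 CPM (SD, n = 3). The 3 defining neuron markers (elavl3, elavl4 and snap25a) summed to between 1121 and 1177 CPM in control-MO. In wbp11-MO they summed to between 777.9 and 848.4 CPM, with none at 0. Of these, elavl4 and snap25a were lower. The marker elavl3, the 1 higher gene of the list, rose from 374.6 ± 16.0 to 441.7 ± 24.0 CPM (SD, n = 3). Axons are what myelin is wrapped around, and the part of these shifts in the falls of the myelin genes was not tested. Motor neurons share precursors with oligodendrocytes. Of 10 motor neuron genes found among 11 listed, 3 were higher and 3 lower, or 30.0% each. This is near the 30.5% and 31.2% of all tested genes. The acetylcholine transporter gene slc18a3a fell by 0.83 ± 0.08 and the transcription factor gene isl2a rose by 0.62 ± 0.09 (log2, SE). The 3 defining motor neuron markers (isl1, mnx1 and chata) summed to between 128.5 and 137.4 CPM in control-MO and to between 108.2 and 109 CPM in wbp11-MO, with none at 0. Of these, isl1 fell from 86.6 ± 2.45 to 60.9 ± 1.6 CPM (SD, n = 3), mnx1 was called higher at 4.40 ± 1.87 and 6.98 ± 0.73 CPM, a call lost when control-MO replicate 2 or wbp11-MO replicate 1 was left out, and chata was not called (adjusted p = 0.56 by edgeR).

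Of 30 neural crest and pigment cell genes, 14 were higher (46.7%) and 8 lower (26.7%), beside 30.5% and 31.2% of all tested genes. The list median was 0.24. The melanin synthesis gene dct rose from 42.6 ± 4.82 to 88.9 ± 2.85 CPM and the iridophore gene pnp4a fell from 63.2 ± 5.21 to 17.2 ± 0.54 CPM (SD, n = 3). The 5 defining crest and pigment markers (foxd3, crestin, mitfa, dct and ltk) summed to between 79.9 and 92.1 CPM in control-MO and to between 121.1 and 130.4 CPM in wbp11-MO, with none at 0. Of these 5, 2 were higher, dct and mitfa, the second by 1.23 ± 0.22 on the log2 scale (SE). Another 2 were lower, as foxd3 fell by 0.37 ± 0.11 and ltk fell by 0.69 ± 0.15 (log2, SE), and crestin was not called (adjusted p = 0.0558 by edgeR). Since sox10 is used by these cells too, its level in whole embryos is a sum over cell types that include glia and crest. Their shares in it were not tested.

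Of 15 Hedgehog pathway genes tested, 12 were higher (80%) and 0 lower by edgeR, beside 30.5% and 31.2% of all tested genes. The list median was 0.48. The receptor gene smo rose from 66.0 ± 3.83 to 198.3 ± 1.36 CPM (SD, n = 3). The co-receptor genes cdon and boc rose by 0.85 ± 0.05 and 0.73 ± 0.05 on the log2 scale (SE). At an unadjusted p under 0.05 the count of lower genes was also 0, as it was by DESeq2 and by limma-voom. Hedgehog signalling induces olig2 in the ventral neural tube, and olig2 itself was not called.

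A broader set came from the table's own annotation, the 48 tested genes besides the members that carry a myelination, myelin or oligodendrocyte term, chosen after the table was opened. It was divided more evenly, with 20 higher (41.7%) and 16 lower (33.3%), beside 30.5% and 31.2% of all tested genes. Its median log2 fold change was 0.16. It holds the Hedgehog receptor smo, notch3 at 1.28 ± 0.05 and the remodeller chd7 among those that rose, and nsfa, which encodes a membrane fusion ATPase, at -1.64 ± 0.07, scn1bb at -1.06 ± 0.09, lingo1b and dync1h1 at -0.60 ± 0.06 among those that fell (SE). Of its 51 rows, 11 also stand on the lists above, and many of its genes act widely in development.

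**Figure D5:**
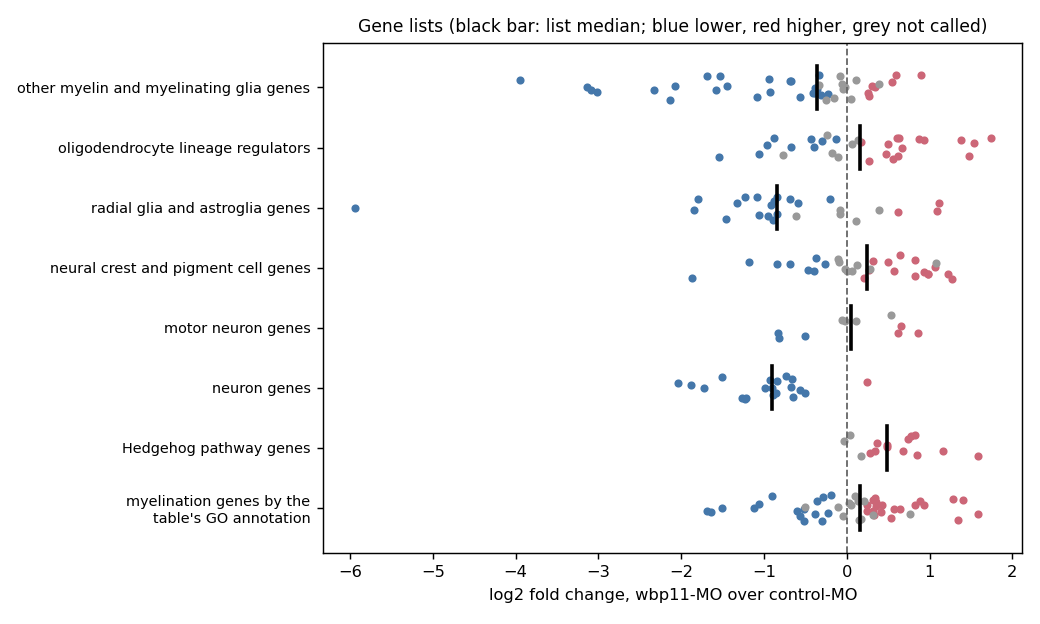
Log2 fold change (wbp11-MO over control-MO) of every tested gene of each list; blue points are called lower, red called higher and grey not called, the black bar is the list median and the dashed line the median of all tested genes. The medians of neuron genes and radial glia genes lie at -0.90 and -0.85, that of other myelin genes at -0.36, and that of Hedgehog genes at 0.48.

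Genes with profiles most like those of mbpa and plp1a were sought among 13257 named genes with a mean of at least 5 CPM. Likeness was the root mean square difference of log2 CPM, each gene centred on its own mean, over the 6 libraries. Nearest to mbpa were the aquaporin gene aqp8a.2, the recoverin family gene rcvrn3 and cyp8b1, which encodes an enzyme of bile acid synthesis, with differences of 0.37, 0.40 and 0.40 and log2 fold changes of -5.32, -4.61 and -4.32. Nearest to plp1a were the mismatch repair gene mlh3, the phosphofructokinase gene pfkmb and myt1b, with differences of 0.07, 0.08 and 0.09 and log2 fold changes of 1.57, 1.65 and 1.54. With 6 libraries in 2 groups this measure mainly orders genes by their difference between the groups.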

How the data were processed

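Read counts per gene and FPKM values were deposited for 6 libraries. FastQC 0.12.1, HTSeq 2.0.5 and build GRCz11 are named per the submitters' processing notes. For the aligner, annotation release, strand setting and treatment of multi-mapping reads, the value is not given in the sources used here, so reads of near-identical paralogs may have been dropped or split. The file headers call the deposited counts read counts. The deposited FPKM values equal count over gene length and column total to a relative difference of 5.16e-15. FPKM served to compare levels between genes, and counts served for every test.

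Tests were run with edgeR 4.0.16 in R 4.3.3, using filterByExpr, TMM factors and the quasi-likelihood F-test over all 20012 genes kept, with Benjamini-Hochberg adjusted p under 0.05 as the threshold. SE are the absolute log2 fold change over the square root of F, and CPM use TMM-adjusted totals. Ratios of members used a pseudocount of 0.5 and an exact permutation test over libraries. No library was a duplicate of another, since chi-square over its degrees of freedom was 2.63 to 4.03 within groups. The replicate numbers were not stated to pair the libraries, so no block was used in the main fit. The tests were checked on simulated counts in which few genes were changed, some up and some down. That check did not cover a change in as many genes as were called here.

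The members and gene lists were chosen with earlier results of these data known. Named genes are the 9 members, the wbp11 rows, from each list up to 4 called genes per direction with the smallest adjusted p, and the 3 genes most like mbpa and plp1a. A symbol with several rows was counted by row, and not all named genes are described. Further, 1 list and some named genes are not reported here. Alternatives were other scaling factors, other filters, a replicate block, DESeq2 1.42.0, voom in limma 3.58.1, other pseudocounts and leaving out each library. The set from the table's annotation and the ratios of olig1 and sox10 to olig2 were added later. No sequences are shown because none were part of the sources used here.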

Additional observations from a re-analysis of the deposited data

How the results depend on the processing

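Over the 14 alternatives the member counts stayed at 6 lower and 1 higher, and each of the 7 called members kept its direction and call. The log2 fold change of mbpa ran from -4.97 to -4.01, of plp1a from 1.55 to 1.78, of plp1b from -2.98 to -2.79, of mpz from -2.51 to -1.71, of olig1 from -3.72 to -2.22, of mbpb from -0.53 to -0.40 and of gfap from -0.46 to -0.36. The gene sox10 stayed uncalled, with adjusted p from 0.102 to 0.588, and so did olig2, with adjusted p from 0.658 to 0.979. The log2 fold change of olig2, 0.01 as reported, was -0.0219 with upper-quartile factors and -0.0602 with library totals without TMM factors. With 1 library left out it ran from -0.044 to 0.0737, and it was negative when control-MO replicate 1 (-0.015), control-MO replicate 3 (-0.0214) or wbp11-MO replicate 2 (-0.044) was the one removed. The cause was not tested. The call of the motor neuron gene mnx1, a log2 fold change of 0.65, was lost when control-MO replicate 2 was left out (0.38, adjusted p = 0.134 by edgeR) or wbp11-MO replicate 1 (0.56, adjusted p = 0.0797 by edgeR). The counts of every list stayed within 1.5 times those reported. Other pseudocounts left the direction of every ratio as it was. With a replicate block the log2 fold change of mbpa was -4.35 and of plp1a 1.64, and 5977 genes were higher and 6119 lower in place of 6105 and 6244. Same-numbered libraries did not deviate together (correlations of -0.02, -0.04 and 0.01 for numbers 1, 2 and 3), so the block rests on numbers alone. DESeq2 called 5685 higher and 5865 lower. Depth limits olig1 most, with 21 counts over the wbp11-MO libraries.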

Other observations

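The gene sox10 lies 91864 bases from the chromosome 3 row of wbp11, with 2 rows of the table between them. Its nearest neighbour, polr2f, had a log2 fold change of 0.26 (edgeR adjusted p = 0.0333). The nearest neighbours of the members that moved most went various ways. For plp1a the adjacent gene pcdh20, on the same strand, had a log2 fold change of -0.40 (edgeR adjusted p = 0.0143) and rab9b one of -0.84 (edgeR adjusted p = 0.00249), against 1.63 for plp1a. For mbpa the nearest tested gene, znf516, had a log2 fold change of 0.23 (edgeR adjusted p = 0.0018), and for mpz the sodium pump gene atp1a2a had one of 0.58 (edgeR adjusted p = 3.53e-10). The gene nlgn3b near plp1b fell by 1.16 on the log2 scale (edgeR adjusted p = 1.45e-12), and si:dkey-125i10.3, nearer still, rose by 0.54 (edgeR adjusted p = 0.00117). The other neighbour of mpz, lig1, had a log2 fold change of 0.20 (edgeR adjusted p = 0.0155). For olig1 the neighbours olig2 and ercc1 were not called (edgeR adjusted p = 0.932 and 0.383). These neighbours were chosen by position alone, and 61.7% of all tested genes were called in either direction.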
